A study of Homo sapiens with 4 samples.

Results

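The 84 genes described here encode the cytosolic ribosomal proteins and their close paralogs, and they were followed in AGS cells that carried a short hairpin RNA (shRNA) against MFAP2. Members were taken by gene name from the deposited gene table. A name had to be RPL or RPS with a number and the usual suffixes, or to be RPLP0, RPLP1, RPLP2 or RPSA. RPS27A was left out, as were the mitochondrial ribosomal proteins and the ribosomal S6 kinases, whose names follow other patterns. The rule took 84 of the 47251 rows, with no name repeated. Of these, 53 named proteins of the large subunit and 31 named proteins of the small subunit. In all, 76 were core genes and 8 were paralogs of a core gene (RPL3L, RPL7L1, RPL10L, RPL22L1, RPL26L1, RPL36AL, RPL39L and RPS27L).

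AGS is an established human gastric adenocarcinoma cell line. Per the study's methods, cells received a lentivirus with the MFAP2 shRNA or with a scrambled control shRNA, and stable lines were selected with puromycin. Total RNA was sequenced in 2 libraries of sh-MFAP2 cells (sh-MFAP2 replicates 1 and 2) and 2 control libraries (control replicates 1 and 2). The titles give both libraries the hairpin name sh1 with a replicate number, while the descriptions read sh1 and sh2. The libraries were taken as replicates of 1 hairpin from the titles, and whether they carried different hairpins is not settled by the labels. An effect of MFAP2 and an effect of the hairpin cannot be told apart. Nothing says whether the replicates came from separate cultures, so p-values measure only the spread between these samples, which may be technical.

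The ribosome reads messenger RNA and joins amino acids into protein. Its small subunit decodes the message and its large subunit forms the peptide bond, and each holds a set of proteins on a core of ribosomal RNA. The proteins are made in matched amounts, and their messengers are among the most abundant of dividing cells. Nearly all begin with a C followed by a run of pyrimidines, the terminal oligopyrimidine (5' TOP) motif, through which their translation follows nutrient and growth signals. Some genes have paralogs that arose by duplication or retrotransposition and that can be expressed in particular tissues, and loss of 1 copy of several core genes causes Diamond-Blackfan anemia.

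The start sites of some paralog pairs, of RPL7L1 and of the 3 genes whose levels moved most are shown first. They are shown because the 5' TOP motif is the shared regulatory feature of this family. RPL7 and the pairs of RPL3L, RPL10L and RPL39L are not shown. Each line gives 30 bases of RefSeq sequence (GRCh38.p14), read 5' to 3' on the gene's strand, with 15 bases before the annotated start and 15 from it on. Capitals mark a tract that begins with C at the start base and goes on with at least 4 bases that are C or T.
RPL22: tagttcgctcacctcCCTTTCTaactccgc
RPL22L1: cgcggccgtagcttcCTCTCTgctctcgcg
RPL26: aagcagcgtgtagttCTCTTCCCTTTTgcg
RPL26L1: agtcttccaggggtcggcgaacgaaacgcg
RPL36A: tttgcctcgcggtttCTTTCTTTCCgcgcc
RPL36AL: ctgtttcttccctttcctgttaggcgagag
RPS27: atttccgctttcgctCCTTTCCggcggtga
RPS27L: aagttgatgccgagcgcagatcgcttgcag
RPL7L1: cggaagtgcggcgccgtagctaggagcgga
RPL29: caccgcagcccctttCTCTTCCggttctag
RPL15: ggcgctggggcctgctggaggagcttcacg
RPS15: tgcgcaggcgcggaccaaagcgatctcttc

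These windows lie at chr1:6199581-6199610 (RPL22), chr3:170870181-170870210 (RPL22L1), chr17:8383179-8383208 (RPL26), chr5:172958714-172958743 (RPL26L1), chrX:101390996-101391025 (RPL36A), chr14:49620612-49620641 (RPL36AL), chr1:153990747-153990776 (RPS27), chr15:63157463-63157492 (RPS27L), chr6:42879601-42879630 (RPL7L1), chr3:51995881-51995910 (RPL29), chr3:23916530-23916559 (RPL15) and chr19:1438381-1438410 (RPS15). RPL22, RPL22L1, RPL26, RPL36AL, RPS27L and RPL29 lie on the minus strand and the others on the plus strand. RPL26L1 and RPL15 have further annotated starts, none with the tract. Of the 67 members matched in the promoter table, 46 (68.7%) had the tract at an annotated start, against 5.14% of 27305 genes with a promoter. The tract stood at a start of 45 of 61 core genes (73.8%) and of 1 of 6 paralogs (16.7%), RPL22L1. When the tract was allowed to begin up to 10 bases from the start, 57 of the 67 members (85.1%) and 37.4% of all genes had one. A window without the tract says only that these letters do not begin at that annotated base.

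Values are FPKM, fragments scaled to the length of the feature and to the depth of the library, taken from the values since no source names the unit. FPKM are relative to the whole library, and in bulk RNA a change in RNA per cell and a change in the share of cells that express a gene cannot be told apart. MFAP2 (ENSG00000117122) had a value of 0 in each library of sh-MFAP2 cells and of 0.0116 and 0.0138 FPKM in control cells, too low to check the labels. The 7 epithelial markers summed to between 1781 and 2009 FPKM, most of it from the keratins, with EPCAM between 192.9 and 210.4. CLDN7 was at 26.02 and 34.2 FPKM in sh-MFAP2 cells and at 46.1 and 48.2 in control cells, CDH1 was at most 1.25 and CLDN4 was at 47.1 in sh-MFAP2 replicate 1 and at most 0.551 elsewhere. The 6 gastric markers summed to at most 6.16 FPKM, with GKN1 and MUC5AC at or near 0. Of 7 markers of other cell types, COL1A1 was at 2.27 and 2.07 FPKM in sh-MFAP2 cells and at 4.36 and 4.92 in control cells, and no other passed 0.03, with PTPRC, CD3E, CDH5 and DCN at or near 0. Steps between low values implied 54600000 to 74600000 reads per library, and at least 923 implied reads stood behind each value of a tested member. Between 69.0% and 75.1% of the whole steps were even, as when reads come in pairs, so the number of fragments may be lower.

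Among the members, 81 averaged 1 FPKM or more across the libraries and were tested, as were 9873 genes in all. The remaining 3 were paralogs known mainly from testis or muscle. RPL10L and RPL39L were listed at 0 in every library, for the gene and for each transcript. RPL3L, the muscle paralog of RPL3, stood at 0.00254 and 0.0352 FPKM in sh-MFAP2 cells and at 0.0430 and 0.0800 FPKM in control cells.

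**Figure D1:**
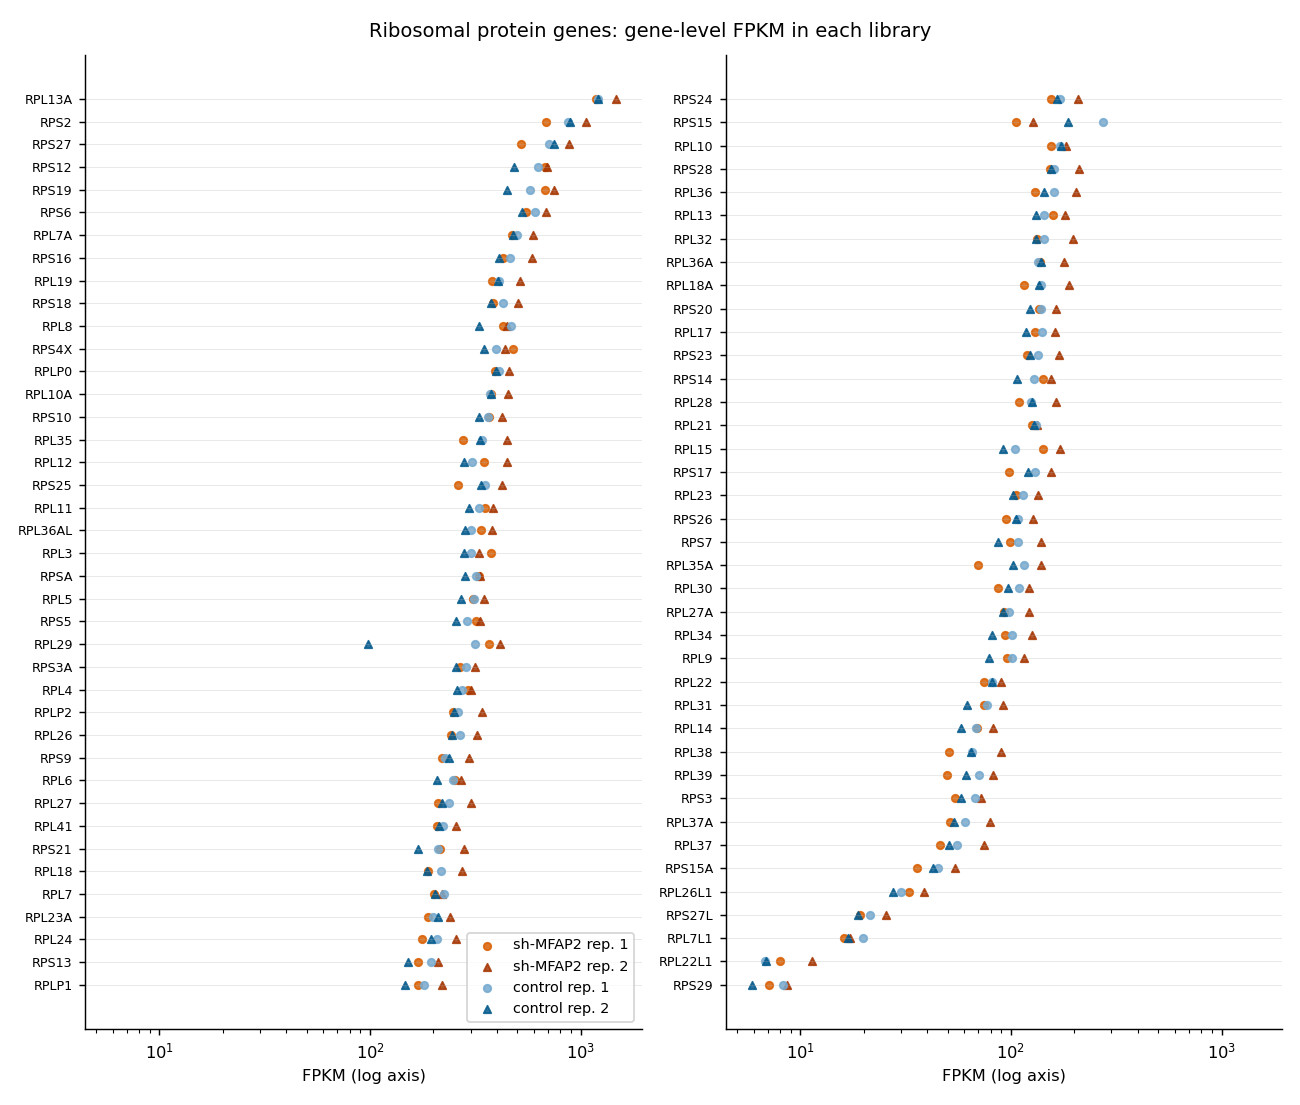
Gene-level FPKM (log axis) of 79 of the 81 tested ribosomal protein genes, ordered by mean level, in each of the 4 libraries. RPL13A stands highest, the triangle of sh-MFAP2 replicate 2 lies to the right of the other points in 73 of these 79 genes, and RPL29 in control replicate 2 and RPS15 in control replicate 1 lie apart.

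Gene-level values ran from 7.47 FPKM (RPS29) to 1270 FPKM (RPL13A) in the mean of 4 libraries, with a median of 181 FPKM. RPL13A, a surface protein of the large subunit, was at 1189 and 1477 FPKM in sh-MFAP2 cells and at 1205 and 1207 FPKM in control cells. Among the next highest were the small subunit genes RPS2 with a mean of 875 FPKM, RPS27 with 712 FPKM and RPS12 with 622 FPKM. The 5 lowest were RPS29 and the paralogs RPL22L1, RPL7L1, RPS27L and RPL26L1, with means from 7.47 to 32.3 FPKM.

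The gene value and the sum of the gene's transcript values are different quantities. For each of 8962 genes above 1 FPKM in every library, the deposited gene value equalled the length-weighted sum of its transcripts divided by 1 fixed length, which can be far longer than the transcript that is expressed. RPS29, a zinc-binding protein of the small subunit, had a fixed length of 9783 bases while its leading transcript had 296 bases. Its transcripts therefore summed to a mean of 222 FPKM, 29.7 times the gene value of 7.47 FPKM. Over the 81 members the ratio of the transcript sum to the gene value ran from 1.00 to 29.7 with a median of 2.97.

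On the transcript sums the highest core gene stood 18.2 times above the lowest, against 170 times on the gene values. RPL13A led on both scales, with a transcript sum of 2890 FPKM. RPL36A and its paralog RPL36AL changed places, since RPL36AL had a mean of 326 FPKM on both scales and RPL36A had 147 FPKM as a gene value and 1272 FPKM as a transcript sum. Differences between libraries below use the gene values, since a fixed length cancels there, and so do the ratios of paralog to parent, whose size therefore does not give the relative level of the pair.

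**Figure D2:**
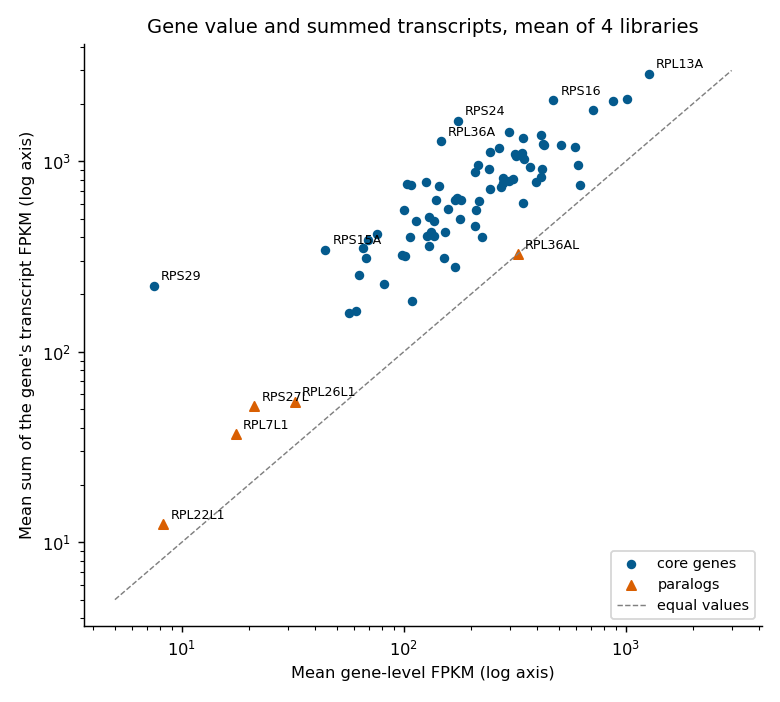
Mean gene-level FPKM against the mean sum of the gene's transcript FPKM for the 81 tested members (both axes log, mean of 4 libraries), with the line of equal values. RPS29 lies farthest above the line, at 7.47 against 222, and RPL36AL lies on it.

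The question put to the libraries was whether these genes differed between sh-MFAP2 and control cells. No member was a differentially expressed gene (DEG) in limma at p under 0.01 and adjusted p under 0.05, against 27 of 9873 genes (0.273%). Over all genes that count was 0 with any library left out, and likewise 0 under a replicate block. At an unadjusted p under 0.05, 1 of 81 members was higher in sh-MFAP2 cells (RPL15) and 1 was lower (RPS15), against 3.89% and 8.41% of all genes. The median log2 fold change of the 81 members was 0.14, with 68 above 0 and 13 below. Over all genes the median was -0.05, with 42.0% above 0. Both sh-MFAP2 libraries lay above both controls in 20 of 81 members (24.7%), against 17.5% of all genes, and below both in 1 (RPS15), against 31.4% of all genes.

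That median rested on a single library. Without sh-MFAP2 replicate 2 it was -0.04, with 33 of 81 members above 0, and without sh-MFAP2 replicate 1 it was 0.33, with 79 above 0. Counts at an unadjusted p under 0.05 moved too, but a group then held a single library. Leaving out control replicate 1 gave a median of 0.22 with 74 members above 0, and leaving out control replicate 2 gave 0.08 with 64. Over all genes those medians were -0.06 and -0.06. The members moved together from library to library. sh-MFAP2 replicate 2 held the highest value in 75 of 81 members, against 23.9% of all genes, and control replicate 2 held the highest value in none, against 29.6% of all genes. The lowest value was in sh-MFAP2 replicate 1 for 38 members, in control replicate 2 for 40 and in control replicate 1 for 3.

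**Figure D3:**
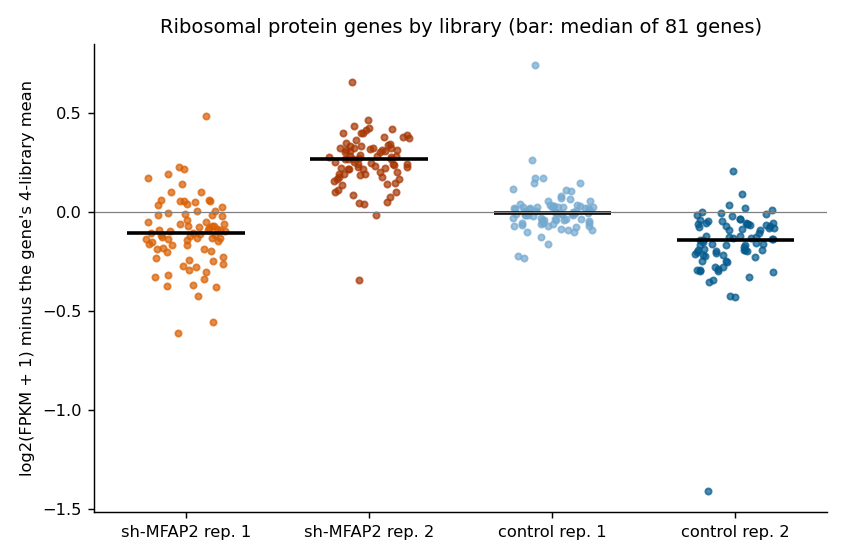
For each of the 81 tested members, log2(FPKM + 1) in a library minus the mean of that gene over the 4 libraries, with a bar at the median over members. The medians are -0.11 and 0.27 in sh-MFAP2 replicates 1 and 2 and -0.01 and -0.14 in control replicates 1 and 2, so that the 2 sh-MFAP2 libraries lie on opposite sides of 0.

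Between the sh-MFAP2 replicates, replicate 2 minus replicate 1 had a median of 0.37 on the log2 scale in members and 0.04 over all genes. sh-MFAP2 replicate 2 was the higher in 79 of 81 members, against 56.0% of all genes. RPL3 and RPS4X were the exceptions. RPL3, which sits near the peptidyl transferase center, was at 375 and 330 FPKM in sh-MFAP2 cells and at 301 and 280 FPKM in the controls. RPS4X, encoded on the X chromosome, was at 479 and 438 FPKM and at 397 and 346 FPKM. Both lay higher in each sh-MFAP2 library than in each control, with log2 fold changes of 0.28 and 0.31 and adjusted p of 0.457 and 0.441 in limma.

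Control replicate 1 exceeded control replicate 2 in 69 of 81 members, by a median of 0.13, against 48.3% of all genes and a median of -0.007. The gap between the sh-MFAP2 replicates was therefore larger than the median difference between the groups. Fold changes were nonetheless close together, with an interquartile range of 0.17 for the members and 0.38 for all genes tested. Members had short transcripts, with a median length of the leading transcript of 815 bases against 2776 bases over all genes. Over all genes, log2 fold change and transcript length had a Spearman correlation of -0.32, given as a description across genes of the same libraries, and within the members it was 0.17. With the length trend removed the members' median was 0.03, and 43 of 81 lay above 0, against a median of -0.05 over all genes.

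**Figure D4:**
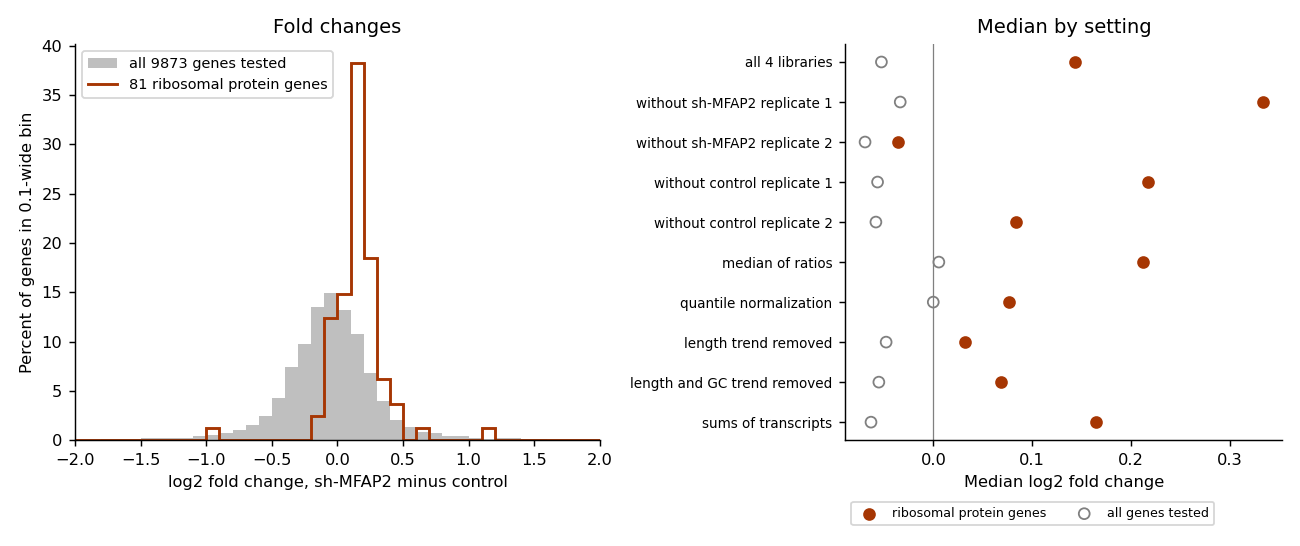
Left, percent of genes in bins of log2 fold change (sh-MFAP2 minus control) for 81 ribosomal protein genes (line) and for all 9873 genes tested (grey), with 64 genes outside the axis. Right, median log2 fold change of the members (filled) and of all genes (open) with all libraries, with each library left out and under other settings, where the members' median lies between -0.04 and 0.33.

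The members' share of all summed gene values was 10.4% and 12.2% in sh-MFAP2 replicates 1 and 2, and 10.3% and 9.87% in control replicates 1 and 2. Both sh-MFAP2 shares were above both controls, but sh-MFAP2 replicate 1 exceeded control replicate 1 by little. The means were 11.3% ± 1.26 (SD, n = 2) and 10.1% ± 0.324 (SD, n = 2), a difference of 1.199 percentage points with an exact permutation p of 0.33 (two-sided), the smallest p that 2 against 2 libraries allow. Without sh-MFAP2 replicate 2 the difference was 0.311 points, and without sh-MFAP2 replicate 1 it was 2.09 points. In a share summed over genes the fixed lengths do not cancel. With transcript values times length, which gives shares of reads, the shares were 7.54% and 9.085% in sh-MFAP2 cells. In control cells they were 7.38% and 6.81%.

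Core genes of the 2 subunits had like values. The median log2 fold change was 0.14 for 46 large subunit and 0.14 for 30 small subunit core genes. Above 0 were 40 and 24 of them, against 42.0% of all genes. For the 33 core genes with a counterpart in bacteria it was 0.14, and for the other 43 core genes it was 0.15. By the start tract, 45 core genes with it had a median of 0.14 and 16 without it had 0.17. In GENCODE 29, 28 core genes held 60 small nucleolar RNA genes, which guide chemical changes of ribosomal RNA, inside their spans, and the medians were 0.14 for these hosts and 0.14 for the other 48.

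The stalk of the large subunit recruits translation factors with GTPase activity. Its base RPLP0 was at 393 and 455 FPKM in sh-MFAP2 cells and at 410 and 397 FPKM in control cells. RPLP1 was at 170 and 219.9 FPKM against 180.1 and 146 FPKM. RPLP2 was at 248 and 339.9 FPKM against 261 and 249.9 FPKM. In all 3 genes the groups overlapped and sh-MFAP2 replicate 2 was highest, with log2 fold changes from 0.07 to 0.25 and no unadjusted p under 0.05.

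RPL5 and RPL11 bring the 5S ribosomal RNA into the large subunit. RPL5 was at 307 and 346 FPKM in sh-MFAP2 cells and at 313 and 270.1 FPKM in control cells. RPL11 was at 351 and 383 FPKM against 329 and 296 FPKM. Only RPL11 had both sh-MFAP2 libraries above both controls, with a log2 fold change of 0.23 ± 0.13 (SE) and an adjusted p of 0.504 in limma.

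RPSA, the laminin receptor precursor and a small subunit protein, was at 329.7 and 334 FPKM in sh-MFAP2 cells and at 319 and 284 FPKM in control cells, without overlap. RPS6, the substrate of the S6 kinases, was at 553 and 687 FPKM against 605 and 525 FPKM, with overlap. RPL41, which encodes a peptide of very few residues, was at 207 and 255 FPKM against 223 and 213 FPKM. The log2 fold changes were 0.14, 0.13 and 0.08, and none had an unadjusted p under 0.05.

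The 17 core genes mutated in Diamond-Blackfan anemia had a median log2 fold change of 0.14, with 14 above 0, against 42.0% of all genes. RPS19, the gene most often mutated in that disease and needed for maturation of small subunit RNA, was at 679 and 744 FPKM in sh-MFAP2 cells and at 577 and 448 FPKM in control cells. Its groups did not overlap, with a log2 fold change of 0.48 ± 0.18 (SE), an unadjusted p of 0.0546 and an adjusted p of 0.410 in limma. Without control replicate 2 it was 0.30.

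RPL15 (ENSG00000174748, chr3:23916545-23924374, plus strand), a large subunit protein, had the smallest p among members with higher values. It was at 141 and 171 FPKM in sh-MFAP2 cells and at 105 and 91.5 FPKM in control cells. The groups did not overlap, and the gap between them was larger than the gap within either. Its log2 fold change was 0.66 ± 0.16 (SE), with an unadjusted p of 0.0157 and an adjusted p of 0.349 in limma. The fold change stayed between 0.53 and 0.80 when any library was left out.

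RPS15 (ENSG00000115268, chr19:1438358-1440494, plus strand), a small subunit protein at the head near the decoding site, went the other way. It was at 106 and 128 FPKM in sh-MFAP2 cells and at 272 and 188 FPKM in control cells. RPS15 was the only tested member with both sh-MFAP2 libraries below both controls. Its log2 fold change was -0.95 ± 0.24 (SE), with an unadjusted p of 0.0188 and an adjusted p of 0.361 in limma, and ran from -1.22 to -0.69 with a library left out.

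RPL29 (ENSG00000162244), a large subunit protein also described as a heparin-binding protein, had the largest rise in log2 fold change, and 1 library set its size. It was at 368 and 414 FPKM in sh-MFAP2 cells, whereas the controls had 315 FPKM (replicate 1) and 98.2 FPKM (replicate 2). The log2 fold change of 1.14 ± 0.62 (SE) had an adjusted p of 0.503 in limma. Without control replicate 2 it was 0.31, and without control replicate 1 it was 1.98.

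RPL12, part of the base of the stalk, was at 348 and 449 FPKM in sh-MFAP2 cells and at 304 and 279.6 FPKM in control cells. The groups did not overlap, and the log2 fold change was 0.44 ± 0.17 (SE) with an adjusted p of 0.418 in limma, and it was 0.25 without sh-MFAP2 replicate 2. No tested member was listed under 10% of its highest value in any library.

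After RPS15 the largest falls were those of RPL35A, RPL7L1, RPS27 and RPS25, of which RPL7L1 is described with its parent. RPL35A was at 70.1 and 139 FPKM in sh-MFAP2 cells and at 115 and 102 FPKM in control cells, with a log2 fold change of -0.13. RPS27 was at 521 and 877 FPKM against 704 and 746 FPKM, with a value of -0.10. RPS25, which viral internal ribosome entry sites need, was at 261 and 421 FPKM against 352 and 337 FPKM, with a value of -0.06. In RPL35A, RPS27 and RPS25 the sh-MFAP2 replicates enclosed both controls. Without sh-MFAP2 replicate 1 their log2 fold changes were 0.36, 0.28 and 0.29, and that of RPS25 was also above 0 with scaling by median of ratios, at 0.02.

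Of the 8 paralog pairs, 5 could be compared. Each paralog was given as a log2 ratio to its parent, log2((paralog + 1)/(parent + 1)), within each library. A shift of equal size in both genes nearly cancels there, but the members' shifts differed in size. Between the sh-MFAP2 replicates, replicate 2 minus replicate 1 had a median of 0.39 in members with leading transcripts under 1000 bases. In members with longer ones it was 0.27. RPL22L1, which can take the place of RPL22 in the large subunit, was at 7.98 and 11.3 FPKM in sh-MFAP2 cells and at 6.79 and 6.89 FPKM in control cells. RPL22 was at 74.4 and 89.96 FPKM against 80.9 and 80.9 FPKM. The log2 ratio was -3.07 and -2.89 in the sh-MFAP2 and -3.39 and -3.38 in the control libraries, higher in both sh-MFAP2 libraries. The difference of 0.41 ± 0.09 (SE) was larger than the spread within either group, and its exact permutation p was 0.33, the smallest possible, or 0.556 adjusted over the 5 pairs. RPL22L1 alone had a log2 fold change of 0.42 ± 0.19 (SE) with an adjusted p of 0.453 in limma, which was 0.20 without sh-MFAP2 replicate 2 and 0.65 without sh-MFAP2 replicate 1.

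RPL26L1, a near copy of RPL26, was at 32.6 and 38.8 FPKM in sh-MFAP2 cells and at 30.03 and 27.6 FPKM in control cells. RPL26 was at 243 and 322 FPKM against 267 and 245 FPKM. The log2 ratio was -2.86 and -3.02 against -3.11 and -3.10, a difference of 0.17 ± 0.08 (SE). The difference was 0.085 without sh-MFAP2 replicate 1. The groups of ratios did not overlap, with an exact permutation p of 0.33 and 0.556 after adjustment.

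RPL36AL, a close copy of RPL36A, was the only paralog at the level of core genes on transcript sums. It was at 337 and 380.0 FPKM in sh-MFAP2 cells and at 302 and 283 FPKM in control cells, without overlap. RPL36A was at 138 and 179 FPKM against 134 and 138 FPKM. The log2 ratio of gene values was 1.29 and 1.08 against 1.17 and 1.03, and the groups overlapped, with a difference of 0.09 ± 0.12 (SE) and an exact permutation p of 0.667. Without sh-MFAP2 replicate 1 the difference was -0.014, and without control replicate 2 it was 0.020. On transcript sums RPL36AL made up 20.4% of the pair, the largest share of any paralog.

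RPL7L1, which belongs to nucleolar precursors of the large subunit rather than to the finished ribosome, was at 16.1 and 17.3 FPKM in sh-MFAP2 cells and at 19.8 and 16.8 FPKM in control cells. RPL7 was at 202 and 220.2 FPKM against 223 and 203 FPKM. The log2 ratio was -3.57 and -3.60 against -3.43 and -3.52, lower in both sh-MFAP2 libraries, with a difference of -0.11 ± 0.05 (SE), an exact permutation p of 0.33 and 0.556 after adjustment. On transcript sums that difference was -0.19, and without control replicate 1 it was -0.061. The log2 fold change of RPL7L1 itself was -0.12, and its groups overlapped.

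RPS27L, the paralog of RPS27, was at 19.1 and 25.6 FPKM in sh-MFAP2 cells and at 21.5 and 18.7 FPKM in control cells. Its log2 ratio to RPS27 was -4.70 and -5.05 against -4.97 and -5.24, with overlap, a difference of 0.23 ± 0.22 (SE) and an exact permutation p of 0.667. Without sh-MFAP2 replicate 1 the difference was 0.060, and without control replicate 2 it was 0.097. The log2 fold change of RPS27L was 0.13, and -0.07 without sh-MFAP2 replicate 2. On transcript sums RPL22L1, RPL26L1, RPL7L1 and RPS27L made up 5.22%, 4.46%, 6.20% and 2.72% of their pairs.

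Ribosomal protein genes have many processed copies in the genome whose reads can be shared with the parent, and how such reads were assigned is not given in the sources used here. The gene table named 34 pseudogenes of members, of which 4 had a mean of at least 1 FPKM. Adding each pseudogene's value to its parent left the members' median log2 fold change at 0.14. Values of the members are uncertain to the extent that reads were split with such copies or with readthrough transcripts that overlap them.

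The members had 735 annotated transcripts, of which 558 had a mean of at least 1 FPKM and were tested among 22312. No transcript of any gene was called in limma (0%). At an unadjusted p under 0.05, 22 of the 558 member transcripts were higher in sh-MFAP2 cells (3.94%, against 3.22% of all) and 10 were lower (1.79%, against 4.41% of all). These counts moved when a library was left out, where a group holds a single library. The median log2 fold change over the 558 was 0.14. These 32 transcripts came from 26 genes, of which 4 had transcripts in both directions.

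RPL10 and RPL7 had transcripts among the largest rises with an unadjusted p under 0.05. ENST00000424325 of RPL10, a large subunit protein that joins late in assembly, was at 9.43 and 44.9 FPKM in sh-MFAP2 cells, and the controls had 0.264 FPKM (replicate 1) and 0 (replicate 2), with an adjusted p of 0.416 in limma. The RPL10 transcripts changed places within groups too, since the leading ENST00000369817 was at 42.6 and 0 FPKM in sh-MFAP2 cells and at 441 and 73.6 FPKM in control cells. ENST00000396467 of RPL7 was at 5.55 and 6.55 FPKM against 0.147 and 0.515 FPKM, with an adjusted p of 0.207 in limma. The gene values of RPL10 and RPL7 had log2 fold changes of -0.03 and -0.01.

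Among transcripts with an unadjusted p under 0.05, the largest falls were those of RPS15, RPL35 and RPS3. ENST00000592623 of RPS15, with 3 exons and 873 bases, was at 18.02 and 27.1 FPKM in sh-MFAP2 cells and at 211 and 113 FPKM in control cells. Its log2 fold change was -2.75 ± 0.42 (SE), with an adjusted p of 0.317 in limma. ENST00000373570 of RPL35 was at 2.97 and 6.07 FPKM against 12.1 and 17.8 FPKM, and ENST00000524851 of RPS3 was at 2.66 and 4.58 FPKM against 12.4 and 9.87 FPKM. Their log2 fold changes were -1.57 and -1.41, while the gene values of RPL35 and RPS3 had 0.06 and -0.00454.

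For the genes that moved most, further transcripts were looked up after their values were seen. The leading transcript of RPS15, ENST00000592588, with 4 exons and 510 bases, was at 361 and 412 FPKM in sh-MFAP2 cells and at 569.8 and 536 FPKM in control cells, so that both RPS15 transcripts lay lower in both sh-MFAP2 libraries. The leading transcript of RPL15, ENST00000307839, was at 267 and 316 FPKM against 172 and 137 FPKM, and the next 3 of RPL15 overlapped between groups. ENST00000396465 of RPL7 was at 41.5 and 49.1 FPKM against 9.01 and 11.9 FPKM, and ENST00000294189, which held 98.6% of the RPL29 transcripts, was at 957 and 1080.4 FPKM against 825 and 247 FPKM.

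**Figure D5:**
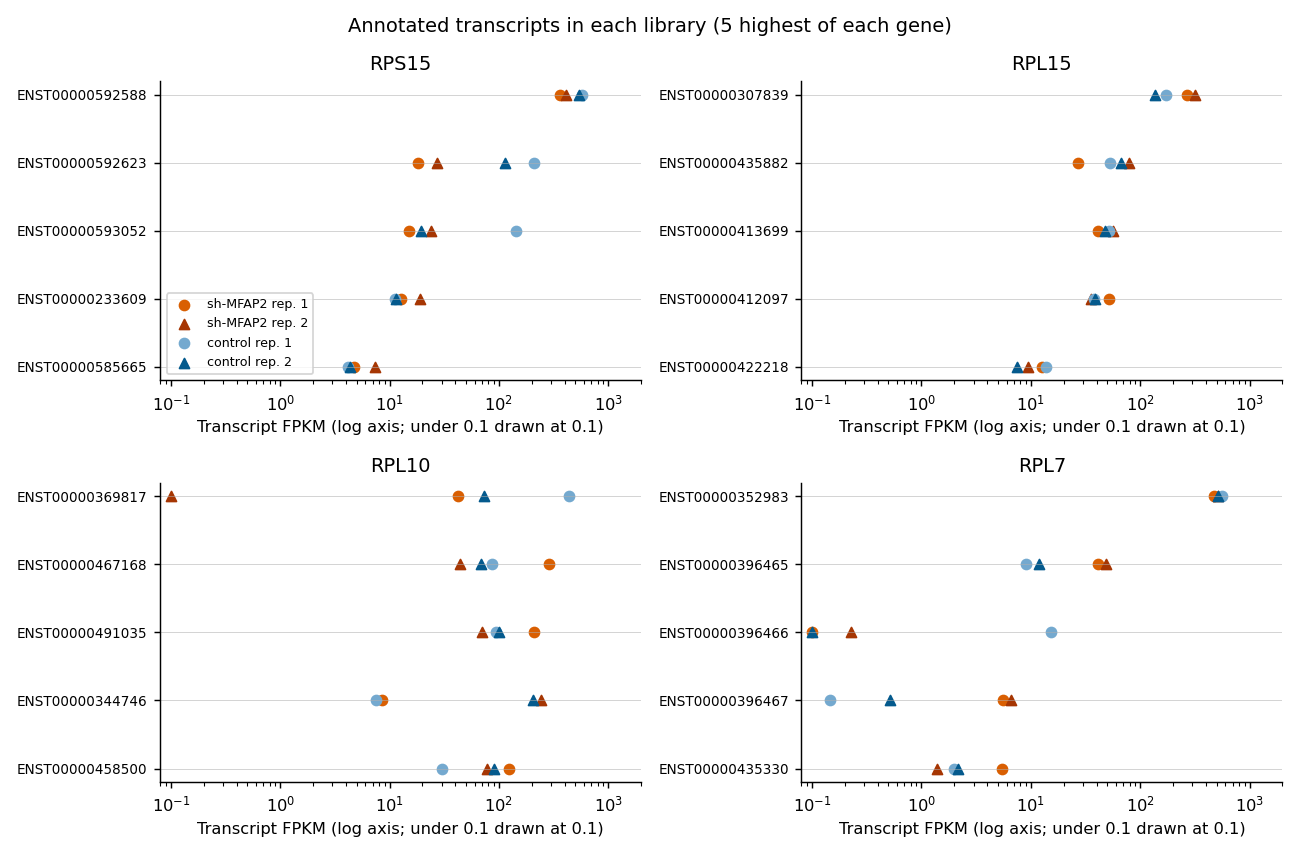
FPKM (log axis) of the 5 highest annotated transcripts of RPS15, RPL15, RPL10 and RPL7 in each library, with values under 0.1 drawn at 0.1. ENST00000396465 of RPL7 and ENST00000592623 of RPS15 separate the groups, in opposite directions, while ENST00000369817 of RPL10 spreads widely within each group.

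Among transcripts of the paralogs, 2 of RPL26L1 had an unadjusted p under 0.05, in opposite directions. ENST00000519156 was at 3.91 and 5.39 FPKM in sh-MFAP2 cells and at 2.42 and 2.21 FPKM in control cells. ENST00000519522 was at 1.53 and 1.51 FPKM against 2.96 and 3.02 FPKM. No transcript of RPL22L1, RPL36AL, RPL7L1 or RPS27L had an unadjusted p under 0.05.

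Transcripts annotated with a retained intron made up 9.08% and 5.78% of the members' summed transcripts in sh-MFAP2 replicates 1 and 2 and 5.45% and 5.94% in control replicates 1 and 2. sh-MFAP2 replicate 1, the library with the lower ribosomal protein values of its group, stood apart. For all other genes the shares were 4.01%, 4.16%, 3.53% and 4.41%. ENST00000561775 of RPL4 was at 609 FPKM in sh-MFAP2 replicate 1 and at most 36.4 FPKM elsewhere. Without it the members' shares were 8.12%, 5.73%, 5.41% and 5.93%, so most of the gap between the sh-MFAP2 replicates remained. The part of these transcripts in the gap between the sh-MFAP2 replicates was not tested.

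Other genes of translation were read from the same fit, in which 3.89% of all genes were higher and 8.41% lower at an unadjusted p under 0.05 and the median was -0.05. No gene of the 4 lists was called in limma. Of 27 tested genes for other 5' TOP messages, 4 were higher and 0 lower at an unadjusted p under 0.05, and their median log2 fold change was 0.10. RACK1, a scaffold protein bound to the small subunit, was at 79.9 and 104 FPKM in sh-MFAP2 cells and at 47.9 and 60.5 FPKM in control cells, with a log2 fold change of 0.75 and an adjusted p of 0.379. FAU, which encodes small subunit protein S30 fused to a ubiquitin-like protein, was at 149 and 162 FPKM against 121 and 114 FPKM, with a log2 fold change of 0.40 and an adjusted p of 0.393. Both genes lay higher in each sh-MFAP2 library than in each control.

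Of 33 initiation factors, 0 were higher and 1 was lower at an unadjusted p under 0.05, against 3.89% and 8.41% of all genes. Their median was -0.05, as over all genes. EIF1B, a homolog of the start codon selection factor EIF1, was at 16.6 and 14.7 FPKM in sh-MFAP2 cells and at 22.9 and 22.2 FPKM in control cells. Its log2 fold change was -0.50 with an adjusted p of 0.346 in limma.

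Of 79 ribosome biogenesis factors, 3 were higher and 5 lower at an unadjusted p under 0.05, against 3.89% and 8.41% of all genes. Their median was -0.01, which changed sign under other scalings. RRP1 and RPF1, which act in large subunit assembly, had log2 fold changes of 0.40 and 0.39. WDR43, a subunit of the small subunit processome, and GNL3L, a nucleolar GTPase, had -0.74 and -0.55. Of 35 genes for RNA polymerases I and III and their factors, 1 was higher and 4 lower, against 3.89% and 8.41% of all genes. Their median was -0.14. POLR1H, a polymerase I subunit, had a log2 fold change of 0.30. BDP1 and GTF3C3, factors of polymerase III, had -0.50 and -0.39.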

How the data were processed

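RNA of 2 sh-MFAP2 and 2 control AGS libraries was compared. The authors deposited a gene table and a transcript table, whose unit was taken as FPKM from the values. The submitters' processing notes name hg38, and the aligner and estimator are not given in the sources used here. Members and gene lists were chosen with earlier results of these data known. Genes or transcripts with a mean of at least 1 FPKM entered limma 3.58.1 (R 4.3.3) as log2(FPKM + 1), fitted by lmFit and moderated by eBayes with a trend. P-values were adjusted by Benjamini-Hochberg over all features tested, and features were called at p under 0.01 and adjusted p under 0.05. Fold changes understate changes of low values. Depth was implied from steps between low values, of which 64.0% to 66.2% were whole within 0.05 of a step, so reads were not recovered and intervals from counts were not given. Single values per library were compared by exact permutation tests. Coordinates came from GENCODE 29 and start windows from RefSeq. Tables were handled in Python 3.11.15 with pandas 2.3.3 and scipy 1.17.1.

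Members named were those with an unadjusted p under 0.05, the 5 largest changes each way, the 5 highest and 5 lowest, those not tested, paralog pairs, and RPL5, RPL11, RPLP0, RPLP1, RPLP2, RPSA, RPS6, RPS19 and RPL41. RPL3, RPS4X, RPL9 with its copy RPL9P9, and transcripts said to be looked up later were chosen after their values were seen. From other lists, the 2 largest changes each way at an unadjusted p under 0.05 were named. Alternatives were other filters, pseudocounts, scalings, removal of length and GC trends, transcript sums, pseudogenes added, the replicate number as a block and each library left out. Shares of reads and centring on the members were added after seeing the data. The fit was tested on simulated data. Results for some genes are not reported here.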

Additional observations from a re-analysis of the deposited data

How the results depend on the processing

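With 2 libraries a group, single libraries set most values. The members' median log2 fold change kept its sign in 14 of 15 alternatives and was -0.036 without sh-MFAP2 replicate 2 (range with a library left out -0.036 to 0.33). The median over all genes without that library was -0.069. With a library left out, members higher at an unadjusted p under 0.05 numbered 0 to 23 and lower 0 to 5, and transcripts higher numbered 18 to 60 and lower 10 to 41. Members higher numbered 2 with quantile normalization, 6 with scaling by median of ratios, 4 with length and GC trends removed and 3 with transcript sums, where the medians were 0.077, 0.21, 0.069 and 0.16, and 2 members were called at an unadjusted p under 0.05 alone. Otherwise no member or transcript was called in any alternative. The median for other 5' TOP genes ran from 0.041 to 0.18 with a library left out, for initiation factors from -0.091 to -0.048, for biogenesis factors from -0.042 to 0.015 and for polymerase genes from -0.20 to -0.052. For initiation factors it was -0.023 with quantile normalization and 0.017 with median of ratios, and for biogenesis factors 0.034 and 0.056. The median paralog ratio difference ran from 0.060 to 0.25 with a library left out. Of 208 alternatives for single genes, 5 changed sign, namely RPL35A, RPS27 and RPS25 without sh-MFAP2 replicate 1, RPS25 (0.016) with median of ratios and RPS27L without sh-MFAP2 replicate 2. With a library left out RPL35A ran from -0.62 to 0.36, RPS27 from -0.47 to 0.28, RPS25 from -0.40 to 0.29 and RPS27L from -0.067 to 0.34. The causes were not tested.

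Whether replicate numbers pair the libraries is not known. Across genes, replicate 1 minus replicate 2 in sh-MFAP2 cells and in control cells had a correlation of -0.06 over all genes and 0.27 over members. A correlation leaves out the mean of each difference, and the members' medians went opposite ways. Replicate 2 was the higher by 0.37 in sh-MFAP2 cells, and replicate 1 was the higher by 0.13 in control cells. These are descriptions across genes of the same libraries, and with 2 libraries a group they cannot settle whether same-numbered libraries shared a batch. With the replicate block 0 members were called, 1 was higher and 1 lower at an unadjusted p under 0.05, and the median log2 fold change was 0.14.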
